A study of Mus musculus with 11 samples.

Results

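Described here are 37 genes of fatty acid oxidation and targets of the peroxisome proliferator-activated receptors (PPARs), chosen by name, in the RNA of the mouse distal ileum. The list was drawn up under a label that also names ketogenesis, but it holds no enzyme of ketone body synthesis, and genes of ketone metabolism are described apart from it. A row was found for 36 of them in a count table of 31168 named genes, and all 36 had a mean of at least 1 CPM (counts per 1000000 counts) over the 11 libraries, the level required for a gene to be reported. The lowest mean, before scaling between libraries, was 1.87 CPM for Etfb, so no member lay just under the limit. All 36 also passed the filter on low counts, which kept 15911 genes for testing. They comprise 20 genes of mitochondrial steps, 9 of peroxisomal steps, and 7 regulators and other PPAR targets. Cyp4a10, an omega-hydroxylase of fatty acids, was not analysed here.

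Fatty acids are burned by beta-oxidation, a spiral of 4 reactions that shortens an acyl-CoA stepwise and delivers acetyl-CoA and electrons. Long chains reach the mitochondrial matrix as carnitine esters, while peroxisomes begin the shortening of very long and dicarboxylic chains. PPAR alpha, a nuclear receptor that binds fatty acids together with its partner RXR, switches on many of these genes in fasting and after fatty meals. In the small intestine, absorptive enterocytes both export dietary fat and oxidise part of it, and the intestine can make ketone bodies.

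The tissue was a piece of distal ileum of 2 cm from mice given dextran sodium sulfate, an agent that damages the gut lining. All mice carried floxed H2-Ab1 alleles (H2-Ab1 fl/fl), H2-Ab1 being the gene of an MHC class II beta chain. The 6 WT mice were Villin:Cre- and the 5 dIEC mice were Villin:Cre+, so that in dIEC the Cre recombinase is made from the villin promoter, which is active in intestinal epithelium. The series' design text writes Cre- for both groups, and the grouping used here follows the genotype label of each sample. Each library was taken as 1 mouse because the design text counts 6 and 5 mice, and the p-values rest on the spread among them. No untreated mice were analysed here, and the labels used here do not state age, sex, diet or feeding state.

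Total counts ran from 6603965 to 9681698 per library, and protein-coding genes other than Lars2 kept 1510296 to 3215574 of them, the depth behind the genes below. The targeted gene H2-Ab1 averaged 82.7 ± 27.2 CPM over the 6 WT libraries and 25.8 ± 9.82 CPM over the 5 dIEC libraries (mean ± SD, as in what follows), and every dIEC library lay below every WT library (two-sided exact permutation p = 0.00433, the smallest that 462 splits allow). Over all genes edgeR called 1 gene, the metallothionein Mt1, higher (0.00628% of those tested) and 0 lower (0%), H2-Ab1 itself being at adjusted p = 0.363. All 15 epithelial markers of a list made for the tissue, Epcam, Cdh1 and Vil1 among them, were present in every library, and the log2 fold change was above 0 for 15 of 15 (median 0.24). Values are for whole tissue, in which fewer cells of a type and less RNA per cell cannot be told apart.

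No member passed the adjusted threshold of 0.05 in either direction: 0 of 36 were called by edgeR (lowest adjusted p = 0.427, for Acadl and Pex11a) and 0 by DESeq2, which called 11 genes in all (0.0391%). At an unadjusted p under 0.05 there were 4 members, all higher in dIEC: Acadl, Hadha, Pex11a and Vnn1. That is 11.1% of the members, against 10.7% of all genes in either direction, 4.86% higher and 5.79% lower. The exact permutation test put 2 members, Acadl and Pex11a, at an unadjusted p under 0.05, where it put 7.95% of all genes. In 0 of 36 members did the groups separate without overlap, against 0.233% of all genes with every dIEC library above WT and 0.333% with every dIEC library below. Small differences leaned toward dIEC: 32 of the 36 log2 fold changes (88.9%) were above 0, against 48.8% of all genes, and their median was 0.21 against -0.01. With scaling by library size alone, 19 of the 36 members were above 0, against 2788 of all 15911 genes tested. The median of all genes was then -0.22. The count of 32 was 28 without dIEC replicate 1, with a median of 0.098. By class, 19 of 20 mitochondrial genes were above 0 (median 0.19), 7 of 9 peroxisomal genes (0.10) and 6 of 7 regulators and targets (0.34), and with library size alone these counts were 10, 4 and 5. Without dIEC replicate 1 the median of the regulators and targets was 0.017, with 4 of 7 above 0, and without dIEC replicate 11 the peroxisomal median was -0.013.

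**Figure D1:**
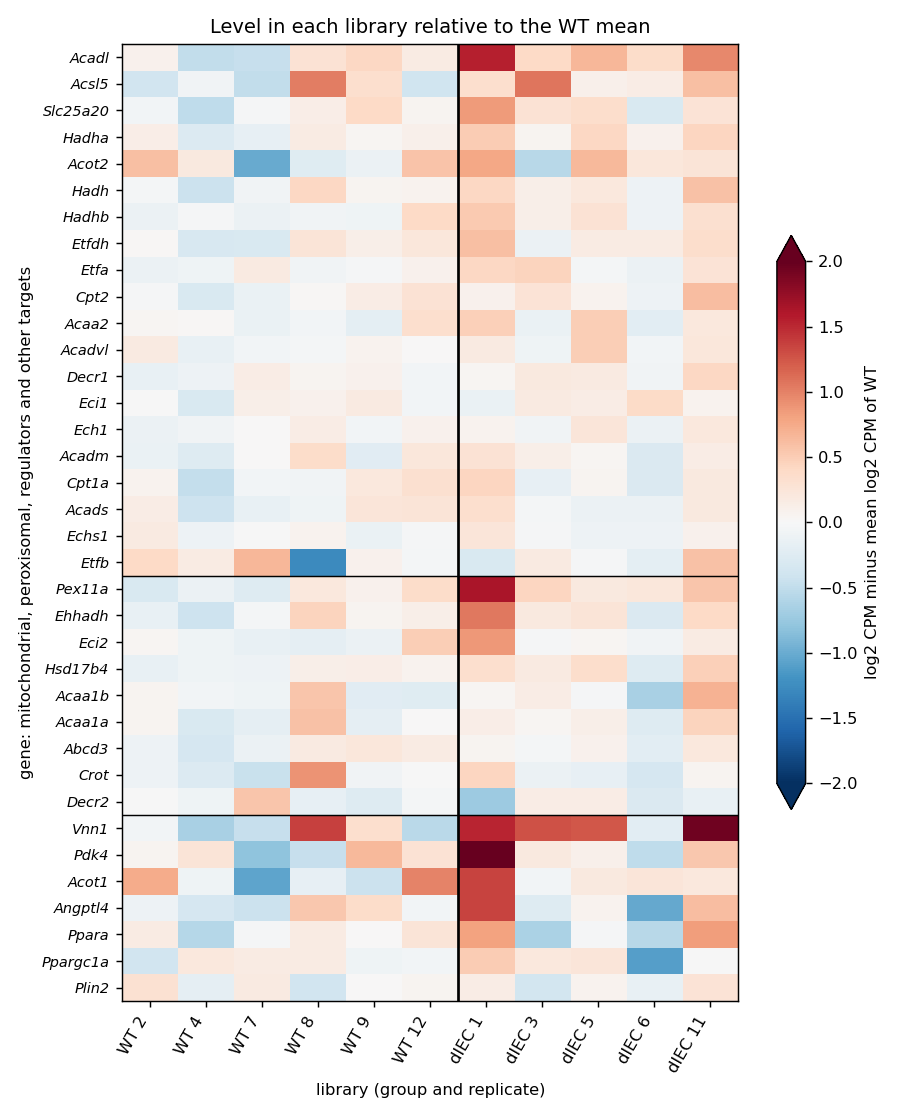
Heat map of the 36 genes (rows, in their 3 classes, sorted by fold change) in the 11 libraries (columns), as log2 CPM minus the mean log2 CPM of the WT libraries; colours stop at 2 in each direction. The column of dIEC replicate 1 holds the highest value of 16 genes, and the columns of WT replicate 4 and dIEC replicate 6 hold the lowest values of 14 and 7.

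To place the genes, upstream sequences are shown for Acadl and Pex11a, the members with the lowest p, for Pdk4, the member in which dIEC replicate 1 exceeded the other libraries most, for Cpt1a as the entry step, and for the gap between Hadha and Hadhb, which are transcribed away from each other. Sequences come from RefSeq's annotation of GRCm38.p6, which gave a window for 31 of the members, and only bases before the start site and outside every GENCODE exon are printed. These genes were picked after their values were seen. The Cpt1a window lies before the RefSeq start but inside the GENCODE gene, in an intron of a transcript that starts farther upstream, at 3322334. Sequences run 5′ to 3′ on the strand named, that of the gene or, for the gap, of Hadhb. Capitals mark the hexamer AGGTCA, to which nuclear receptors bind, and the GC box CCGCCC, on either strand.
Acadl (chr1:66863310-66863559, minus strand, 250 bases): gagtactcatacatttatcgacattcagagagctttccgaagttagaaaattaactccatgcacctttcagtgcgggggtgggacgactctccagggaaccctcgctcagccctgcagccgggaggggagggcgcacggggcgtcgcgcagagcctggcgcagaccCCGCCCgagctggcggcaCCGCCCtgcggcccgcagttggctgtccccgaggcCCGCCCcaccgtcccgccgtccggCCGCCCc
Pex11a (chr7:79743184-79743381, minus strand, 198 bases): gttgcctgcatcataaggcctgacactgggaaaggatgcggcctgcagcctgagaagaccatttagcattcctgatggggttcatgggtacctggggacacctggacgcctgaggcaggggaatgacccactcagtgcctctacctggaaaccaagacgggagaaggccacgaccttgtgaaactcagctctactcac
Pdk4 (chr6:5496310-5496528, minus strand, 219 bases): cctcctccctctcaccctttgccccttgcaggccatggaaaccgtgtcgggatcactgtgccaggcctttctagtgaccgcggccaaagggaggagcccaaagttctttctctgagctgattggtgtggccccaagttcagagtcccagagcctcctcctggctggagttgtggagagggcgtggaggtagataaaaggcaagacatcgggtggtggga
Cpt1a (chr19:3323051-3323284, plus strand, 234 bases): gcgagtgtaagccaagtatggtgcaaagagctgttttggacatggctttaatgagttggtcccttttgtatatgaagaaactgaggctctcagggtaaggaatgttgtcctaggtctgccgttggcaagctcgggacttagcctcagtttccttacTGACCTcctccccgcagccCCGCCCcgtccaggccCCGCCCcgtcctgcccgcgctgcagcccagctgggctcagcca
Hadha-Hadhb gap (chr5:30155163-30155247, plus strand, 85 bases): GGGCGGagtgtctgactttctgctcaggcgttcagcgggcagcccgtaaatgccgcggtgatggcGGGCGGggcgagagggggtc
A direct repeat of AGGTCA with a single base between the copies, the consensus of a PPAR response element, was searched on both strands in the 250 bases before each start. None of the 31 members with a window held it (0), and it was in 0.0335% of all 32851 windows. At so low a share its absence from 31 members was likely in advance, so this search cannot tell whether they are PPAR targets. The hexamer alone, which is part of that repeat, was in the windows of 5 members (Acadm, Acadvl, Cpt1a, Echs1 and Plin2), and 14.0% of all windows hold it. GC boxes were in 18 of the 31, against 32.7% of all windows, with 4 of them in Acadl and 2 in the gap between Hadha and Hadhb. A member was counted if any of its windows matched, while the percentages are shares of single windows, so they are not in the same unit. A match is a stretch of letters, and absence of a match covers only these windows.

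Of the 4 genes that bring long-chain fatty acids into mitochondria, 0 were called. Acsl5 couples a fatty acid to coenzyme A, Cpt1a makes its carnitine ester at the outer membrane, Slc25a20 carries the ester inward and Cpt2 returns it to coenzyme A. Cpt1a, the step at which entry is controlled, had 51.4, 72.3 and 89.6 CPM as the lowest, median and highest of the WT libraries. In dIEC it had 97.3, 64.2, 74.4, 58.9 and 82.6 CPM in replicates 1, 3, 5, 6 and 11. Only replicate 1 lay above the WT range, and the log2 fold change was 0.05 ± 0.15 (SE, edgeR adjusted p = 0.931; exact permutation p = 0.766). Acsl5 had the highest mean CPM of the members, 78.0 ± 36.7 in WT and 102 ± 30.8 in dIEC (SD), with a log2 fold change of 0.39 ± 0.28 (SE). Its highest values were 147 CPM in WT replicate 8 and 153 CPM in dIEC replicate 3, and the log2 fold change was 0.67 without the first and 0.20 without the second. Slc25a20 had means of 32.9 (WT) and 40.9 CPM (dIEC), with a log2 fold change of 0.31 ± 0.18 (SE) that was 0.15 without dIEC replicate 1. Cpt2 averaged 21.8 and 25.0 CPM (log2 fold change 0.20 ± 0.14, SE).

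Within the spiral, Acadl had the largest fold change. It encodes the long-chain acyl-CoA dehydrogenase, and lies on chromosome 1 from 66830839 to 66863277 on the minus strand (GRCm38). The WT libraries ran from 21.4 to 40.0 CPM around a median of 32.9, while dIEC replicates 1, 3, 5, 6 and 11 had 89.1, 40.0, 47.8, 39.1 and 58.9 CPM. So 3 dIEC libraries lay above WT and the other 2 sat at the top of the WT range. The means were 31.0 ± 7.73 CPM and 55.0 ± 20.7 CPM (SD), a ratio of 1.78, and the log2 fold change was 0.83 ± 0.23 (SE, unadjusted p = 0.00282, edgeR adjusted p = 0.427). The exact permutation test gave p = 0.0130, or 0.593 adjusted over all genes tested. Without dIEC replicate 1, whose value was 1.51 times the next highest library, the log2 fold change was 0.59. The dehydrogenases for other chain lengths were closer to their WT level, with log2 fold changes of 0.16 ± 0.11 (SE) for Acadvl (very long), 0.06 ± 0.14 for Acadm (medium) and 0.05 ± 0.14 for Acads (short). In Acadvl, 42.9% of the exon bases also belong to exons of Dvl2 on the opposite strand, and whether the counting used strand is not known. Whether the change of Acadl differed from that of the other dehydrogenases was not tested.

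Hadha and Hadhb encode the alpha and beta chains of the mitochondrial trifunctional protein, which carries out the last 3 steps for long chains. Hadha had 61.7, 78.8 and 84.1 CPM as lowest, median and highest in WT and 107, 77.5, 99.5, 79.5 and 101 CPM in dIEC replicates 1, 3, 5, 6 and 11. Replicates 1, 5 and 11 lay above every WT library and replicates 3 and 6 inside the WT range. Its means were 75.3 ± 9.17 and 93.0 ± 13.5 CPM (SD), with a log2 fold change of 0.30 ± 0.12 (SE, unadjusted p = 0.0254, edgeR adjusted p = 0.433; exact permutation p = 0.0563). Hadhb had 16.1, 16.5 and 23.1 CPM as lowest, median and highest in WT, and 25.2, 18.9, 21.5, 16.2 and 21.8 CPM in dIEC in the same order. WT replicate 12 held the WT maximum, and the ranges of the groups overlapped. The log2 fold change of Hadhb was 0.24 ± 0.13 (SE, edgeR adjusted p = 0.508; exact permutation p = 0.108). Per kilobase of annotated exon the WT level was 8.63 CPM for Hadha and 2.67 CPM for Hadhb, and 18.1% of the 50-base windows of Hadhb transcripts also occur in the annotated gene Gm13910, so part of its reads may have more than 1 position.

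The remaining enzymes of the spiral and its side steps had smaller estimates. Hadh, the dehydrogenase of shorter hydroxyacyl chains, had means of 65.7 and 77.7 CPM (WT first; log2 fold change 0.24 ± 0.15, SE). Acaa2, the thiolase that releases acetyl-CoA, averaged 24.7 and 28.1 CPM (0.18 ± 0.14), and Echs1, the hydratase for short chains, 18.6 and 18.9 CPM (0.02 ± 0.10). For 9 of 9 genes of the spiral the log2 fold change was positive, from 0.02 to 0.83 (median 0.18), and 0 were called. It was positive for 7 without dIEC replicate 1 and for 4 with library size alone, where the median of all genes was -0.22. Among enzymes that handle double bonds, Decr1, a reductase of dienoyl chains, averaged 17.8 and 19.9 CPM (log2 fold change 0.16 ± 0.11, SE). Eci1, an isomerase of enoyl chains, averaged 6.02 and 6.63 CPM (0.14 ± 0.14), and Ech1, a dienoyl isomerase found in mitochondria and peroxisomes, 30.7 and 32.3 CPM (0.07 ± 0.10). With library size alone the log2 fold changes of all 3 were below 0. Acot2, a matrix thioesterase, averaged 2.42 and 2.91 CPM (0.26 ± 0.32) and rested on as few as 9 reads in a library. Without dIEC replicate 1 the log2 fold change was 0.10 for Acaa2 and 0.09 for Acot2, and without dIEC replicate 11 it was 0.15 for Hadh and 0.08 for Decr1.

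Electrons from the dehydrogenases pass to the electron transfer flavoprotein, made of Etfa and Etfb, and then to its oxidoreductase Etfdh. Etfa had 14.96, 15.7 and 18.3 CPM as lowest, median and highest in WT and 21.7, 22.0, 15.8, 14.96 and 19.6 CPM in dIEC replicates 1, 3, 5, 6 and 11. Here 3 dIEC libraries lay above WT, and the log2 fold change was 0.22 ± 0.12 (SE, edgeR adjusted p = 0.498; exact permutation p = 0.121). Etfdh averaged 23.5 and 27.6 CPM (log2 fold change 0.23 ± 0.14, SE, or 0.13 without dIEC replicate 1). Etfb, at 1.80 ± 0.747 and 1.77 ± 0.524 CPM (SD; -0.02 ± 0.32, SE), had as few as 4 reads in a library. Of its exon bases, 58.3% are shared with other annotated genes on the same strand (Gm45233 and Mir7051). The counting rule for such reads is not given, so the level of Etfb next to Etfa is uncertain.

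**Figure D2:**
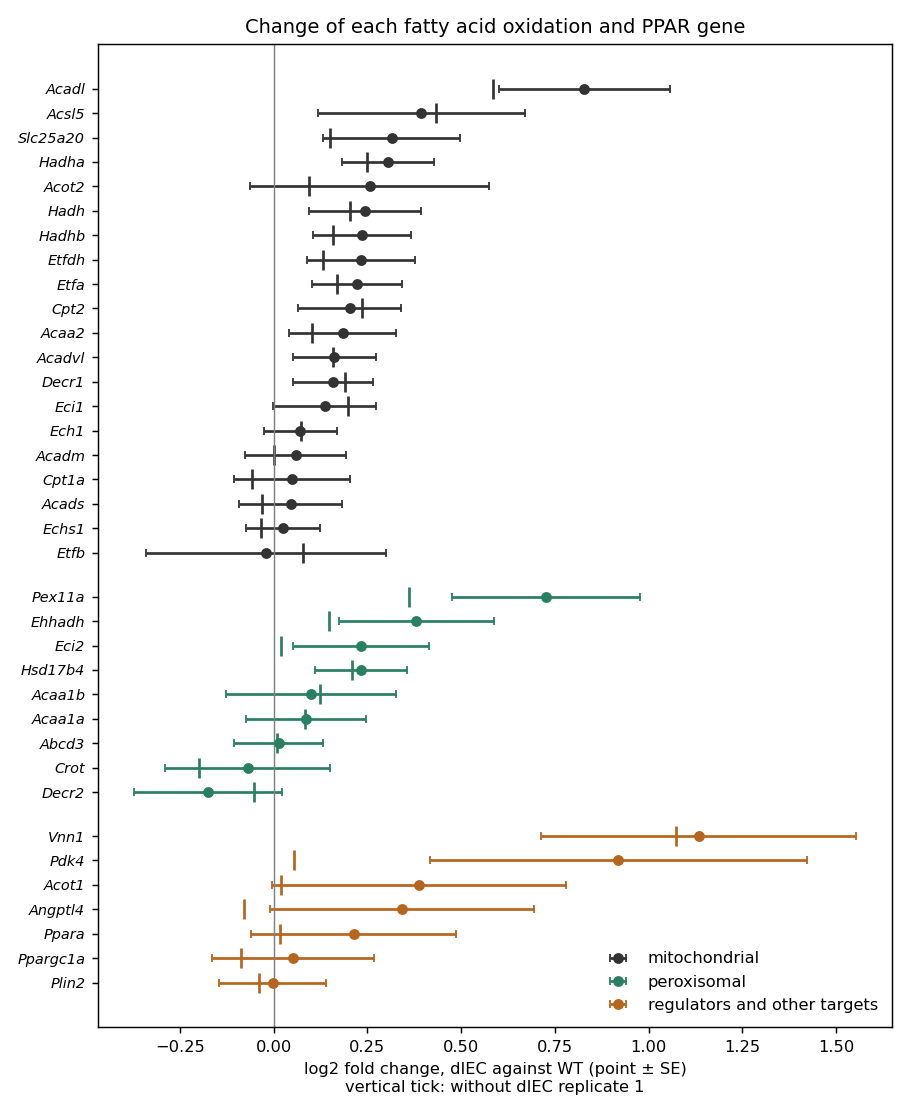
Log2 fold change of dIEC against WT for each of the 36 genes, in 3 classes; points and bars are the estimate ± SE from edgeR, and the vertical tick is the estimate without dIEC replicate 1. Acadl, Pex11a, Vnn1 and Pdk4 lie farthest to the right, and the tick of Pdk4 lies at 0.05 against 0.92 with all libraries.

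Across the peroxisomal steps 0 of 9 genes were called, and log2 fold changes lay on both sides of 0. Abcd3, a transporter of acyl-CoA into the organelle, had the highest mean CPM of the class, 59.1 ± 8.96 in WT and 59.6 ± 6.24 in dIEC (SD), with a log2 fold change of 0.01 ± 0.12 (SE). Ehhadh and Hsd17b4 encode bifunctional enzymes that hydrate and dehydrogenate the chain. Ehhadh had 10.8, 14.5 and 19.7 CPM as lowest, median and highest in WT and 30.5, 16.5, 17.4, 11.8 and 19.1 CPM in dIEC replicates 1, 3, 5, 6 and 11. A single library, dIEC replicate 1, exceeded the WT range, and the log2 fold change of 0.38 ± 0.21 (SE, edgeR adjusted p = 0.503; exact permutation p = 0.199) was 0.15 without it. Hsd17b4 had 23.9, 26.4 and 29.0 CPM as lowest, median and highest in WT and 33.4, 30.1, 33.6, 22.0 and 36.8 CPM in dIEC. In this gene 4 dIEC libraries lay above every WT library and replicate 6 below them all, with a log2 fold change of 0.23 ± 0.12 (SE, edgeR adjusted p = 0.494; exact permutation p = 0.108).

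Pex11a, which takes part in the elongation and division of peroxisomes and is a classic PPAR alpha target, had the largest difference of this class. Its gene lies on chromosome 7 from 79735957 to 79743131 on the minus strand (GRCm38). The WT libraries had 5.36, 6.62 and 8.69 CPM as lowest, median and highest, and dIEC replicates 1, 3, 5, 6 and 11 had 21.1, 9.05, 7.70, 7.87 and 9.89 CPM. Replicate 1 was 2.14 times the next highest library, and replicates 5 and 6 fell inside the WT range. Means were 6.77 ± 1.33 and 11.1 ± 5.66 CPM (SD), with a log2 fold change of 0.73 ± 0.25 (SE, unadjusted p = 0.0119, edgeR adjusted p = 0.427; exact permutation p = 0.0260, or 0.593 adjusted over all genes tested). Without replicate 1 it was 0.36 at an unadjusted p = 0.0389.

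Eci2, an isomerase of unsaturated chains, had 12.7, 13.4 and 20.3 CPM as lowest, median and highest in WT and 26.5, 14.2, 14.8, 13.7 and 16.1 CPM in dIEC replicates 1, 3, 5, 6 and 11. Again replicate 1 alone stood above WT, and the log2 fold change was 0.23 ± 0.18 (SE, edgeR adjusted p = 0.626; exact permutation p = 0.381), or 0.02 without that library. The thiolases Acaa1a and Acaa1b averaged 33.6 and 4.42 CPM in WT and 35.6 and 4.67 CPM in dIEC, with log2 fold changes of 0.09 ± 0.16 and 0.10 ± 0.23 (SE). They are close paralogs: 30.5% of the 50-base windows of Acaa1b transcripts also occur in Acaa1a, so the split of reads between them is uncertain. In this class the log2 fold changes below 0 were those of Decr2, the peroxisomal dienoyl reductase (-0.18 ± 0.20, SE, or -0.03 without WT replicate 7), and Crot, which makes carnitine esters for export from the peroxisome (-0.07 ± 0.22). Crot had 47.0 CPM in WT replicate 8 and 18.5 to 25.0 CPM in the other WT libraries, and its log2 fold change was 0.17 without that library.

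Among the regulators, the receptor Ppara itself had 6.56, 10.5 and 11.8 CPM as lowest, median and highest in WT. In dIEC it had 17.4, 6.26, 9.73, 6.61 and 17.7 CPM in replicates 1, 3, 5, 6 and 11, so that replicates 1 and 11 were the highest of all libraries and replicate 3 the lowest. The log2 fold change was 0.21 ± 0.27 (SE, edgeR adjusted p = 0.791; exact permutation p = 0.498). Ppargc1a, a coactivator of PPAR alpha that also drives mitochondrial biogenesis, had means of 12.6 ± 1.90 (WT) and 13.0 ± 4.55 CPM (dIEC), and a log2 fold change of 0.05 ± 0.22 (SE).

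Vnn1 had the largest fold change of the members. It encodes vanin, a pantetheinase on the cell surface that recycles vitamin B5 from pantetheine, and is a known PPAR alpha target, on the plus strand of chromosome 10 (GRCm38, 23894688 to 23905343). Its WT libraries had 9.37, 12.5 and 38.6 CPM as lowest, median and highest, the last in replicate 8, and dIEC replicates 1, 3, 5, 6 and 11 had 43.3, 36.2, 35.5, 12.8 and 57.6 CPM. So 4 dIEC libraries were at or above 35.5 CPM together with 1 WT library, while dIEC replicate 6 lay with the other WT libraries. Means were 17.0 ± 11.1 and 37.1 ± 16.2 CPM (SD), a ratio of 2.18. The log2 fold change was 1.13 ± 0.42 (SE, unadjusted p = 0.0201, edgeR adjusted p = 0.428; exact permutation p = 0.0606), and it was 1.55 at edgeR adjusted p = 0.0557 without WT replicate 8. Leaving that library out gave 319 genes called over the whole table, some epithelial and enterocyte markers among them.

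Pdk4 encodes a kinase that shuts off pyruvate dehydrogenase and so spares glucose when fat is burned. The WT libraries had 4.30, 8.65 and 12.2 CPM as lowest, median and highest, and dIEC replicates 1, 3, 5, 6 and 11 had 43.3, 8.83, 8.31, 5.35 and 11.3 CPM. Replicate 1 was 3.56 times the next highest library and the other 4 lay within the WT range. The log2 fold change of 0.92 ± 0.50 (SE, edgeR adjusted p = 0.511; exact permutation p = 0.416) was 0.05 without replicate 1.

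Angptl4, a secreted inhibitor of lipoprotein lipase, was also highest in dIEC replicate 1. It had 4.63, 6.04 and 9.38 CPM as lowest, median and highest in WT and 16.7, 5.25, 6.69, 2.99 and 9.89 CPM in dIEC replicates 1, 3, 5, 6 and 11. Replicates 1 and 11 lay above the WT range, and replicate 6 lay below it. The log2 fold change was 0.34 ± 0.35 (SE, edgeR adjusted p = 0.729; exact permutation p = 0.545) and -0.08 without replicate 1. Acot1, a cytosolic acyl-CoA thioesterase, had 0.883, 1.91 and 4.41 CPM as lowest, median and highest in WT and 5.75, 2.01, 2.43, 2.52 and 2.47 CPM in dIEC. Only replicate 1 exceeded the WT range, with a log2 fold change of 0.39 ± 0.39 (SE, edgeR adjusted p = 0.722; exact permutation p = 0.485), or 0.02 without that library. As few as 8 reads stood behind a value, and 13.6% of the 50-base windows of Acot1 transcripts also occur in Acot2.

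Plin2, which coats lipid droplets, had means of 16.6 ± 2.78 CPM in WT and 16.5 ± 2.86 CPM in dIEC (SD). Its WT libraries had 12.5, 16.7 and 20.3 CPM as lowest, median and highest, and dIEC replicates 1, 3, 5, 6 and 11 had 18.1, 12.6, 17.2, 14.8 and 19.9 CPM. The log2 fold change was -0.00 ± 0.14 (SE, edgeR adjusted p = 0.996; exact permutation p = 0.996). In this gene dIEC replicate 1 did not stand apart. Adipocytes of attached fat also express Plin2, Angptl4 and Pdk4. The summed CPM of 10 adipocyte markers ran from 28.6 to 225 in WT and from 30.7 to 165 in dIEC, highest in WT replicate 2 and lowest in WT replicate 12, with 2 of the markers under 1 CPM in every library. Their part in these values was not tested.

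**Figure D3:**
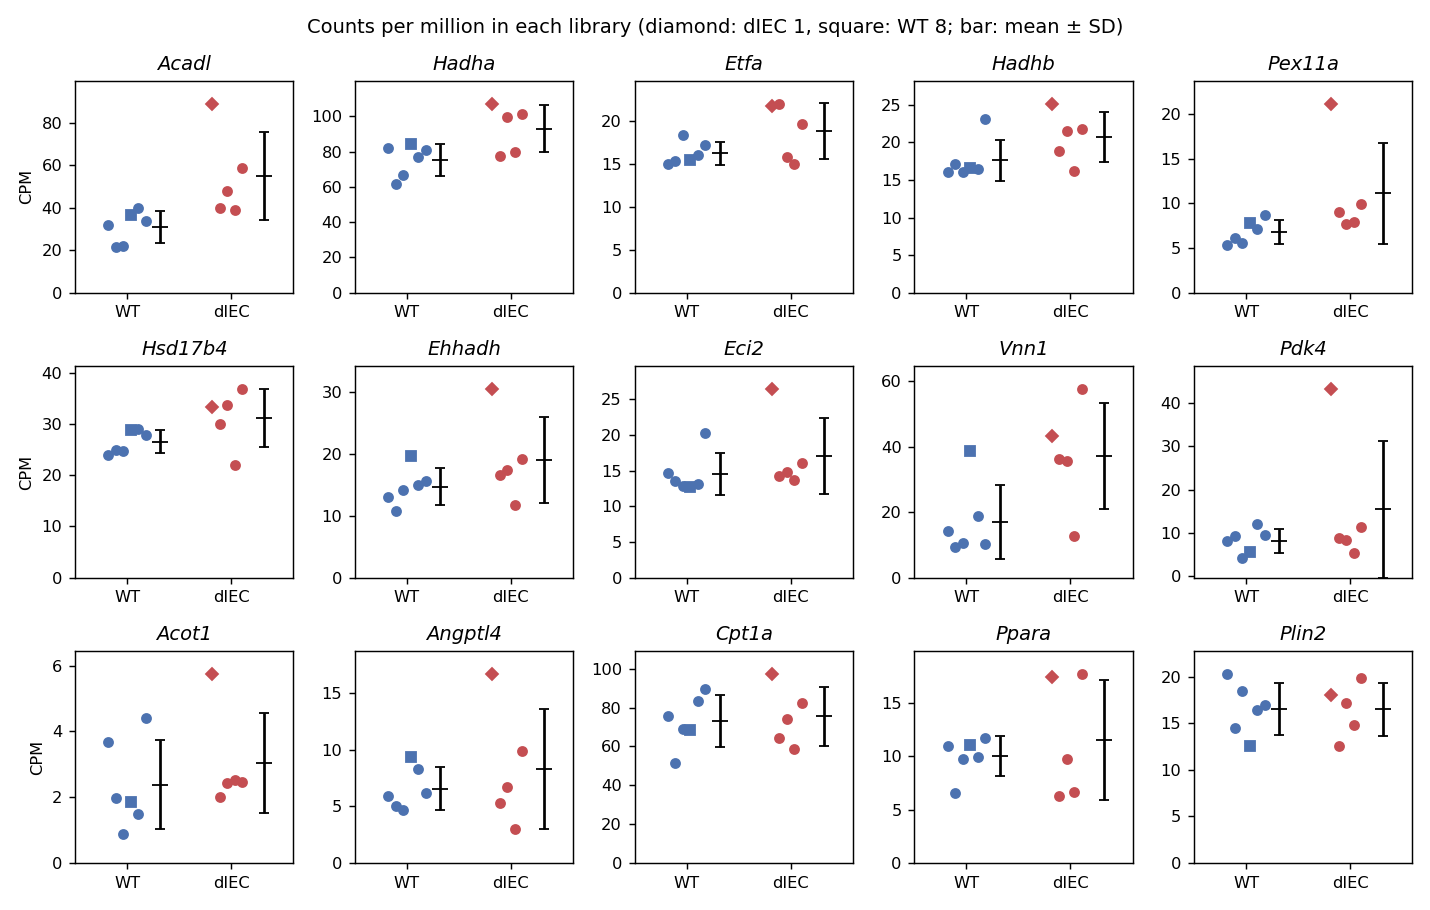
CPM in each of the 6 WT and 5 dIEC libraries for 15 genes; each point is a library, the diamond is dIEC replicate 1, the square is WT replicate 8, and the bar is the mean ± SD. In Pdk4, Pex11a, Eci2 and Acot1 the diamond lies far above the other dIEC libraries, while in Plin2 it does not.

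Library by library, dIEC replicate 1 was the highest of the 11 in 16 of the 36 members and exceeded every WT library in 22. Replicate 11 exceeded every WT library in 15, replicate 5 in 9, replicate 3 in 6 and replicate 6 in 1. Replicate 6 was the lowest dIEC library in 23 members and lay below every WT library in 8. In the WT group, replicate 4 held the lowest value of all libraries in 14 members. The mean log2 CPM of the 20 mitochondrial genes was 4.26 to 4.59 in WT and 4.85, 4.57, 4.67, 4.42 and 4.81 in dIEC replicates 1, 3, 5, 6 and 11. For the 9 peroxisomal genes it was 3.77 to 4.25 in WT and 4.38, 4.06, 4.07, 3.72 and 4.27 in dIEC. The 7 regulators and targets had 2.78 to 3.31 in WT and 4.30, 3.18, 3.41, 2.66 and 3.76 in dIEC, the widest spread of the 3 classes.

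Markers of cell types also differed among these libraries, and whether the members follow them was not tested. The mean log2 CPM of the absorptive enterocyte markers was 7.69, 7.58, 7.35, 6.41 and 7.58 in dIEC replicates 1, 3, 5, 6 and 11, and in WT 7.96 in replicate 8 against 5.89 to 6.86 in the others. Of those 20 markers 18 were tested and 17 were above 0, with a median of 0.59, and their summed CPM ran from 3130 to 12291 in WT and from 4560 to 11281 in dIEC. Smooth muscle markers, 14 of 14 below 0 with a median of -0.39, were lowest in dIEC replicate 1 at 6.49 and ran from 7.20 to 8.42 in the other libraries. Without dIEC replicate 1 their median was -0.25, and without WT replicate 8 that of the enterocyte markers was 1.08. Fibroblast and matrix markers were below 0 in 10 of 10, with a median of -0.77. Their summed levels were 443 to 1178 CPM in WT and 397 to 743 CPM in dIEC. Of these 10, 8 had an unadjusted edgeR p under 0.05 (80%, against 10.7% of all genes), and 0 were called. Their score was not used as a covariate. Leukocyte markers were above 0 in 5 of 8. With the epithelial content score as a covariate the median of the mitochondrial members was 0.096, with 15 of 20 above 0, that of the peroxisomal members was -0.08 and that of the regulators and targets 0.099. With the smooth muscle score these medians were 0.11, -0.02 and -0.04.

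**Figure D4:**
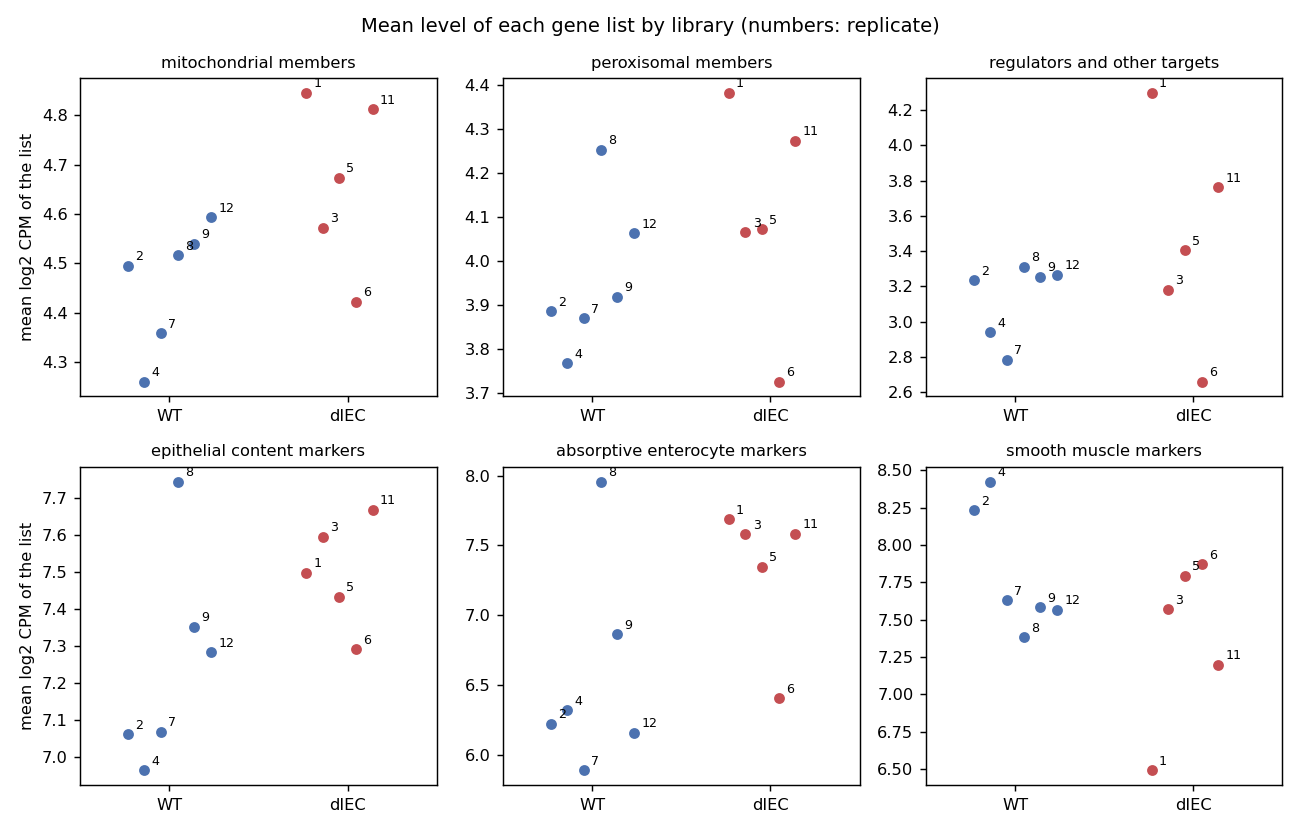
Mean log2 CPM of the 3 classes of members (upper row) and of 3 lists of cell type markers (lower row) in each library, numbered by replicate; the vertical axes do not start at 0. dIEC replicates 1 and 11 are the highest of the group in the upper row and replicate 6 the lowest, WT replicate 8 is the highest in epithelial and enterocyte markers, and dIEC replicate 1 is the lowest in smooth muscle markers.

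Genes of ketone body synthesis and use, which are not among the members, were below 0 in 6 of 7 tested (8 were listed), with a median of -0.13 and 0 called. Synthesis and use were counted together, and some genes of the list are not reported here. The count and median therefore give no direction for synthesis alone. Acat1, the thiolase at both ends of ketone metabolism, averaged 25.1 ± 2.20 and 21.3 ± 1.86 CPM (SD; log2 fold change -0.23 ± 0.10, SE, edgeR adjusted p = 0.441), and Oxct1, which activates ketone bodies for use, 90.5 and 75.3 CPM (-0.26 ± 0.21, SE). Oxct1 had 38.5 CPM in dIEC replicate 1, and its log2 fold change was -0.10 without that library and -0.47 without dIEC replicate 3.

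Other oxidation enzymes were split, with 14 of the 30 tested above 0 and 0 called. Phyh, which starts the breakdown of branched phytanic acid, averaged 20.8 ± 4.20 and 27.4 ± 4.65 CPM (SD; log2 fold change 0.40 ± 0.15, SE, edgeR adjusted p = 0.427). Its log2 fold change was 0.51 at edgeR adjusted p = 0.0485 without WT replicate 8, a setting in which 319 genes were called over the whole table. Scp2, a peroxisomal thiolase and lipid carrier, had a log2 fold change of 0.36 ± 0.17 (SE), or 0.24 without dIEC replicate 1.

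The related receptors and their partner were also measured. In WT and dIEC Ppard averaged 38.5 and 39.4 CPM (log2 fold change 0.03 ± 0.15, SE), Pparg 4.03 and 3.47 CPM (-0.18 ± 0.27), and the shared partner Rxra 52.1 and 60.1 CPM (0.21 ± 0.14). Without dIEC replicate 1 the log2 fold change was 0.10 for Rxra and -0.31 for Pparg, and without dIEC replicate 11 it was -0.03 for Pparg. Per kilobase of annotated exon the WT levels were 5.12 CPM for Ppard, 2.61 CPM for Ppara and 1.36 CPM for Pparg. With library size alone, 5 of the 16 receptors, partners and coregulators were above 0, with a median of -0.15 against -0.22 for all genes. In the main fit 10 were above 0 and 0 were called. Creb3l3, a liver and gut factor that acts with PPAR alpha in fasting, had 52.2, 23.1, 15.8, 5.98 and 22.3 CPM in dIEC replicates 1, 3, 5, 6 and 11, and 4.63, 7.78 and 19.2 CPM as lowest, median and highest in WT. Its log2 fold change was 1.17 ± 0.52 (SE, edgeR adjusted p = 0.459), or 0.67 without dIEC replicate 1. Esrra, an orphan receptor that controls mitochondrial genes, had a log2 fold change of 0.28 ± 0.12 (SE, edgeR adjusted p = 0.444), and the coactivator Ncoa1 0.23 ± 0.13.

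With library size alone, 5 of 13 other PPAR targets tested were above 0, with a median of -0.06 against -0.22 for all genes. In the main fit 10 were above 0 and 0 were called. Slc27a2, an acyl-CoA synthetase and fatty acid transporter, had a log2 fold change of 0.55 ± 0.27 (SE), or 0.25 without dIEC replicate 1. The fatty acid binding protein Fabp1 had 0.52 ± 0.32 (0.29 without dIEC replicate 11) and the monoglyceride lipase Mgll -0.39 ± 0.21. Fatty acid synthesis genes lay mostly on the other side, 11 of 14 tested below 0 with a median of -0.12 and 0 called. Without dIEC replicate 1 that median was -0.056. The desaturase Fads1 averaged 13.6 ± 3.32 and 9.38 ± 2.36 CPM (SD; log2 fold change -0.53 ± 0.19, SE, edgeR adjusted p = 0.427), and Acss2, which makes acetyl-CoA from acetate, 17.0 ± 1.45 and 13.8 ± 2.07 CPM (-0.31 ± 0.12, SE, edgeR adjusted p = 0.427). Elovl5, an elongase, had a log2 fold change of -0.18 ± 0.10 (SE). For the citrate cycle, which takes up the acetyl-CoA, 15 of 21 genes were above 0 with a median of 0.09, and 0 were called. Among them Idh2 had -0.23 ± 0.11 (SE), Suclg1 0.18 ± 0.09 and Sdhd 0.18 ± 0.11. With library size alone 0 of the 21 were above 0, with a median of -0.11 against -0.22 for all genes.

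These directions depend on how libraries are scaled. With library size alone the medians of the mitochondrial, peroxisomal and regulator classes were -0.02, -0.08 and 0.13. Relative to all genes they lay 0.20, 0.14 and 0.35 higher, against 0.20, 0.11 and 0.35 with TMM factors. Above the median of all genes were 32 of the 36 members with library size alone and 33 with TMM factors. Ribosomal rows and Gm42418 took 37.0 to 53.1% of the counts in WT and 39.7 to 57.0% in dIEC. Without the ribosomal rows and Lars2, 33 of the 36 members were above 0, 0 were called, and the medians of the 3 classes were 0.20, 0.11 and 0.35.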

How the data were processed

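RNA of the distal ileum was sequenced from 6 WT and 5 dIEC mice. Per the labels' protocols, RNA from Trizol was purified with a Direct-zol kit and libraries were directional (NEBNext Ultra). TopHat2 and mm10 are named in the submitters' processing notes, while how reads were counted (tool, strand, gene models, multi-mapping) is not given in the sources used here. Raw counts are what the authors deposited, since the values are whole numbers whose sums differ between libraries. Of 31169 rows, 1 names no gene (0.00778 to 0.0147% of the counts) and was left out.

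Genes were kept by filterByExpr, scaled with TMM factors and tested by edgeR 4.0.16 (quasi-likelihood, robust) in R 4.3.3, dIEC against WT, with Benjamini-Hochberg adjustment over 15911 genes at 0.05. The SE was derived from the quasi-likelihood F statistic (size of the log2 fold change over root F). CPM are counts per 1000000 of the TMM-scaled library. Exact permutation tests are two-sided over 462 splits. Alternatives were DESeq2 1.42.0, other scalings and filters, marker covariates (log2 CPM, prior count 2) and each library left out. Gene positions are from GENCODE vM21 (99.2% of symbols matched), promoters from RefSeq. On counts simulated for dIEC against WT over 15639 genes, the test called 75 of 97 genes with a 2-fold change and 95 of 96 with a 4-fold change, and 7 unchanged genes. Those counts were drawn independently for each gene, with no shift shared across genes by a library beyond its scaled size. They therefore do not give the power of the test on these data, where H2-Ab1 was at edgeR adjusted p = 0.363.

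Members and lists were chosen with earlier results of these data known. Values by library are given for 15 members: the 4 of each class with the lowest p, and for their role Cpt1a, Hadha, Ehhadh, Ppara, Pdk4, Plin2 and Angptl4, of which 3 are not among the first. Added are up to 3 genes of each companion list and receptors named for their role; some companion genes are not reported here.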

Additional observations from a re-analysis of the deposited data

Results flagged for a closer look

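In 72 groups of libraries (36 genes in WT and in dIEC), 11 had a highest library whose distance to the next was large against the range of its group, where chance gives about 1 in 20. The groups are not independent, since the genes share libraries. In dIEC replicate 1 the flagged genes were Pdk4 at 43.3 CPM (5.35 to 11.3 in the other dIEC libraries), Pex11a at 21.1 CPM (7.70 to 9.89), Eci2 at 26.5 CPM (13.7 to 16.1) and Acot1 at 5.75 CPM (2.01 to 2.52). In WT replicate 8 they were Vnn1 at 38.6 CPM (9.37 to 18.8 in the other WT libraries), Crot at 47.0 CPM (18.5 to 25.0), Acaa1a at 49.4 CPM (26.5 to 34.3) and its paralog Acaa1b at 6.47 CPM (3.61 to 4.52). WT replicate 12 was apart in Hadhb at 23.1 CPM (16.1 to 17.2) and in Eci2 at 20.3 CPM (12.7 to 14.7), and WT replicate 7 in Decr2 at 8.39 CPM (4.67 to 5.65).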

How the results depend on the processing

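No paired analysis was made, because the labels used here name no litter, cage or pair, and the replicate numbers are library numbers. In 18 alternatives 0 members were called, the lowest edgeR adjusted p being 0.0557 (Vnn1 without WT replicate 8), and 18 of the 36 members kept their direction in all of them. The count of genes called over the whole table was 11 by DESeq2, 2 with library size alone, 0 with the epithelial content covariate, and 1 to 319 when a library was left out, 319 without WT replicate 8. H2-Ab1 passed at log2 fold change -1.67 by DESeq2 (adjusted p = 3.93e-05) and -1.90 with library size alone (adjusted p = 0.00636), and at -1.57 without WT replicate 8 (edgeR adjusted p = 0.0421), and ran from -1.87 to -1.55 with a library left out. Members above 0 numbered 19 with library size alone, against 2788 of all 15911 genes tested. The median of the mitochondrial members was then -0.019. With a library left out that median ran from 0.15 to 0.26, the peroxisomal median from -0.013 to 0.24 and that of regulators and targets from 0.017 to 0.48, while 28 to 35 members were above 0.

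Log2 fold changes on the other side of 0 were as follows; the cause was not tested. With library size alone they were Cpt1a -0.17, Acadvl -0.069, Acadm -0.14, Acads -0.16, Echs1 -0.19, Acaa2 -0.055, Eci1 -0.073, Decr1 -0.050, Ech1 -0.15, Abcd3 -0.19, Acaa1a -0.089, Acaa1b -0.076, Ppargc1a -0.17, Suclg1 -0.032, Sdhd -0.022, Ppard -0.19, Rxra -0.0011. With the epithelial content covariate they were Cpt1a -0.059, Acadm -0.12, Acads -0.046, Echs1 -0.0016, Ech1 -0.0059, Etfb 0.38, Abcd3 -0.15, Acaa1a -0.17, Acaa1b -0.18, Ppara -0.017, Ppargc1a -0.055, Plin2 0.099, Angptl4 -0.019, Mgll 0.018, Ppard -0.030. With the smooth muscle covariate they were Cpt1a -0.14, Acadm -0.094, Acads -0.10, Echs1 -0.039, Etfb 0.11, Abcd3 -0.090, Acaa1a -0.039, Acaa1b -0.022, Ppara -0.18, Ppargc1a -0.12, Angptl4 -0.27. Plin2, at -0.00 as reported, was 0.0094 by DESeq2, 0.00067 with DESeq2 size factors, 0.0040 with no filter and 0.0025 without ribosomal rows and Lars2. Ranges over the libraries left out in turn, for genes that crossed 0, were Cpt1a -0.059 to 0.13, Acads -0.032 to 0.10, Echs1 -0.034 to 0.060, Etfb -0.20 to 0.14, Abcd3 -0.050 to 0.066, Acaa1a -0.013 to 0.23, Acaa1b -0.11 to 0.24, Crot -0.20 to 0.17, Ppara -0.00026 to 0.38, Ppargc1a -0.089 to 0.24, Plin2 -0.081 to 0.086, Angptl4 -0.078 to 0.55, Ppard -0.042 to 0.15. Phyh ran from 0.32 to 0.51. Depth limits the members Etfb, Acot1 and Acot2 and the companion gene Fabp1, which had under 10 reads in some library.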

Other observations

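The ratio of Hadha to Hadhb, genes that start 86 bases apart and encode chains of the same complex, does not depend on library scaling. It ran from 3.49 to 5.11 in WT and from 4.11 to 4.90 in dIEC. The ratio of the paralogs Acaa1a to Acaa1b ran from 6.38 to 9.19 in WT and from 6.29 to 10.2 in dIEC, and that of the flavoprotein chains Etfa to Etfb from 6.63 to 29.2 in WT and from 7.53 to 16.8 in dIEC.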
